A study of Mus musculus and Homo sapiens with 42 samples.

Results

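The RNA-seq libraries described here come from SNB19, a human cell line derived from glioblastoma multiforme, after knockdown of CHD9, a chromodomain helicase DNA-binding protein. They were chosen by the cell line and the hairpin given in their labels, which selected 6 of the 42 libraries of the series. In 4 of them the cells carried a doxycycline-inducible short hairpin RNA against CHD9, with 2 libraries for hairpin 1 and 2 for hairpin 2, named exp1 and exp2. In the remaining 2, also exp1 and exp2, the cells carried an inducible hairpin against luciferase (shLuc), a firefly gene with no counterpart in human cells. Cells of all 3 lines, controls included, were treated with 1 µg/ml doxycycline for 48 hours, so the hairpins were compared under the same drug. The rest of the series covers the human leukemia line K562 treated in the same way and mouse cells, embryonic tissues and lymphomas with Chd9 deleted, beside wild types. Whether each SNB19 line was 1 clone or a pool of infected cells is not given in the sources used here. The labels do not say that exp1 and exp2 were separate cultures, so the p-values measure only the spread between these libraries, which may be technical.

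CHD proteins are ATP-dependent chromatin remodelers that slide or evict nucleosomes and carry paired chromodomains that can bind methylated histone tails. CHD9 belongs, with CHD6, CHD7 and CHD8, to the subfamily that also carries BRK domains, and it has been studied as a chromatin remodeler in bone-forming cells. Glioblastoma cells can move between transcriptional states that resemble astrocytes, oligodendrocyte progenitors, neural progenitors or mesenchymal cells, and signals such as Notch, BMP, Wnt and YAP act on those states.

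The deposited table held raw counts for 29828 genes, of which 26967 (90.4%) could be given a symbol. It listed 9757 of the 19951 protein-coding genes of the annotation used for the names (48.9%). For this reason each gene list below is given with the number of its members that could be tested, and the others, among them the astrocyte genes GFAP and AQP4, were not analysed here. Library totals lay between 9518169 and 10476231 counts, and the 10 most counted genes took 5.52% to 6.42% of a library. Levels are CPM, the counts of a gene relative to the library total after scaling by TMM factors, and are compared between libraries for 1 gene, not between genes. Of the listed genes, 8758 passed the filter on low counts and were tested.

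The listed markers gave only a partial check of the cell type in the label. VIM, an intermediate filament protein of mesenchymal and glial cells, lay between 2937 and 4867 CPM, and NES, the intermediate filament protein nestin of neural stem cells, between 1499 and 1708 CPM. CD44, the hyaluronan receptor, lay between 3224 and 4056 CPM. These 3 genes were chosen after their values were seen and are not particular to glia, since VIM averaged 1314 CPM and NES 125 CPM in the shLuc libraries of K562. Of the astrocyte genes, SOX9, also chosen after its values were seen, lay between 340 and 626 CPM, whereas ALDH1L1 was at most 0.285 CPM. Of the 7 leukocyte markers listed, 5 had no count in any library, and of the 10 erythroid markers listed, 7 had none.

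The 2 libraries of a pair were not equally alike. The chi-square between exp1 and exp2, averaged over genes and equal to 1 under counting noise alone, was 1.16 for shLuc, 1.55 for hairpin 1 and 20.1 for hairpin 2. Hairpin 2 exp2 stood apart, at a root mean square distance of 0.437 (log2) from the shLuc mean, against 0.544, 0.551 and 0.563 for the other 3 knockdown libraries. The counts of called genes over all tested genes are therefore given below with and without hairpin 2 exp2, and those of a list are given again where leaving out 1 library moved them by over 1.5 times.

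CHD9 itself was lower in all 4 knockdown libraries. Its level was 635 and 649 CPM with shLuc, 255 and 245 CPM with hairpin 1, and 213 and 336 CPM with hairpin 2. The groups did not overlap, and hairpin 2 exp2 kept the most transcript, 52.3% of the shLuc mean against 33.2% to 39.7% in the other 3. Mean levels were 262 ± 52.4 CPM (SD, n = 4) after knockdown and 642 ± 10.2 CPM (SD, n = 2) with shLuc, a log2 fold change of -1.29 (SE 0.150, edgeR adjusted p = 8.82e-04). In bulk libraries such as these, fewer cells of a type and less RNA per cell cannot be told apart. Between hairpins the log2 difference on CHD9 was -0.13 (edgeR adjusted p = 0.702), a value that rested on the unlike libraries of hairpin 2. It was -0.43 without hairpin 2 exp1 (adjusted p = 2.25e-20) and 0.23 without hairpin 2 exp2 (adjusted p = 3.26e-05), in fits that assume that the remaining hairpin 2 library varies like the other groups.

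Among the other CHD genes, CHD6, the other listed member of the BRK-domain subfamily, was at 271 and 267 CPM with shLuc, 173 and 165 CPM with hairpin 1, and 171 and 243 CPM with hairpin 2. All 4 knockdown libraries lay below both controls, as in 22.3% of all tested genes. The log2 fold change of CHD6 was -0.51 (SE 0.148, edgeR adjusted p = 0.0455), which is short of the fold required for a call. Its adjusted p was not under 0.05 with hairpin 2 alone or in a fit with exp1 and exp2 as a block. CHD2 and CHD1, remodelers of another subfamily, had log2 fold changes of -0.18 (adjusted p = 0.239) and -0.17 (adjusted p = 0.364). CHD5 was counted at 0.823 to 3.38 CPM with a log2 fold change of 0.79 (adjusted p = 0.295).

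**Figure D1:**
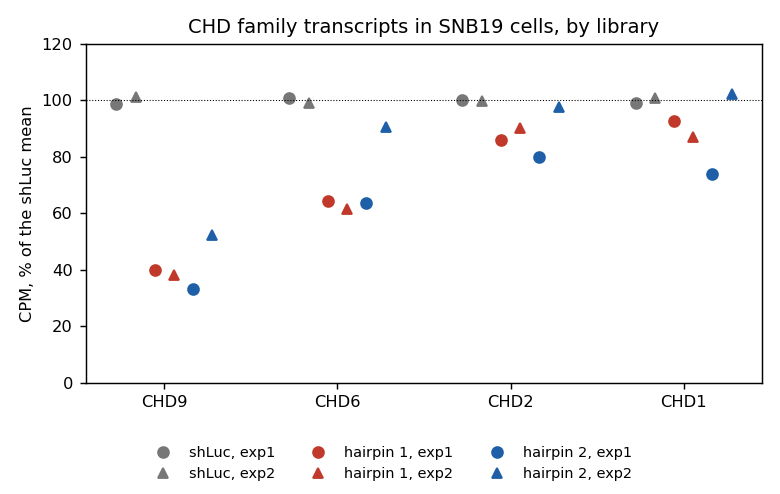
CPM of CHD9, CHD6, CHD2 and CHD1 in each SNB19 library, as a percentage of the mean of the 2 shLuc libraries (dotted line). Circles are exp1 and triangles exp2, and the knockdown libraries of CHD9 lie between 33.2% and 52.3%.

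To ask which genes changed after CHD9 knockdown, the 4 hairpin libraries were compared with the 2 shLuc libraries with the quasi-likelihood F-test of edgeR. Genes whose adjusted p was under 0.05 and whose log2 fold change was beyond 1 count as called. Of the tested genes, 135 rose (1.54%) and 213 fell (2.43%), so that 348 (3.97%) were called. Called genes rose by a median of 1.30 and had a median of -1.43 when they fell, on the log2 scale. Most changes were moderate: 84 of the genes that rose and 123 of those that fell had a log2 fold change between 1 and 1.5 in size, and 4 and 7 exceeded 3. By kind, 105 protein-coding genes rose and 145 fell among 6852 tested, and antisense genes rose in 4 cases and fell in 20 among 544 tested, where reads of the overlapping gene cannot be told apart because the strand setting of the counting is not given in the sources used here. The median log2 fold change over all tested genes was 0.00. The groups did not overlap in 45.9% of all tested genes, 23.6% higher and 22.3% lower, and in each of the 348 called genes. A lack of overlap, where given below, therefore adds nothing to a call.

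The number of calls depended on single libraries. Without hairpin 2 exp2, 163 genes rose and 307 fell, and 334 of those 470 were among the 348. Leaving out shLuc exp1 gave 45 and 79 calls, and leaving out shLuc exp2 gave 50 and 77. In 185 of the 348 called genes (53.2%), hairpin 2 exp2 was the knockdown library nearest to shLuc.

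**Figure D2:**
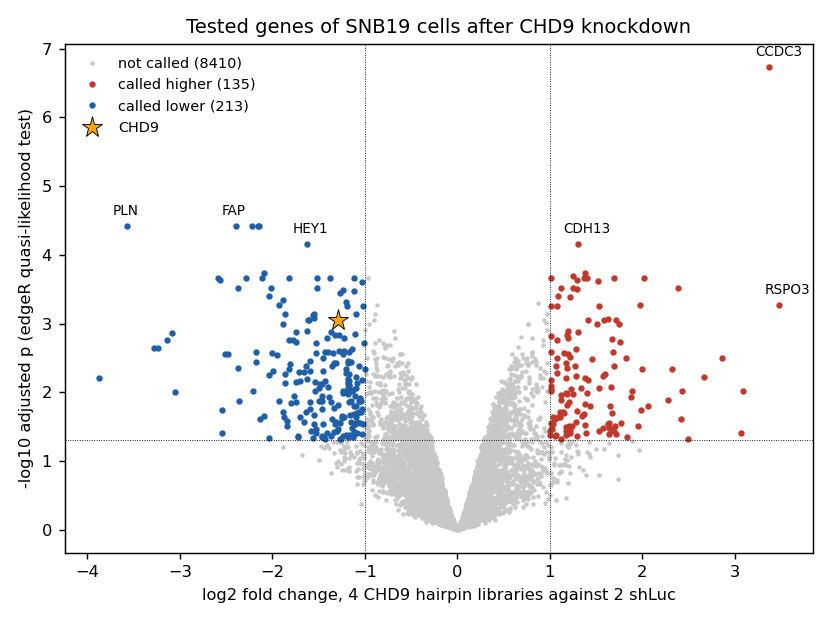
Log2 fold change of CHD9 knockdown against shLuc (x axis) and -log10 of the edgeR adjusted p (y axis) for 8758 tested genes. Red points are the 135 genes called higher, blue points the 213 called lower, the star is CHD9, and dotted lines mark the thresholds of the call.

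The 12 genes with the smallest p among those that rose included a secreted factor, adhesion molecules, a BMP target and matrix proteins. CCDC3, a secreted coiled-coil protein, was at 26.2 and 25.9 CPM with shLuc, 278 and 270 CPM with hairpin 1, and 275 and 260 CPM with hairpin 2. The 4 knockdown libraries lay within a narrow range far above the controls (log2 fold change 3.38, SE 0.104, adjusted p = 1.85e-07). CDH13, a cadherin anchored to the membrane by a lipid, was at 131 and 132 CPM with shLuc and at 306, 332, 330 and 327 CPM after knockdown, without overlap (1.30, SE 0.0906, adjusted p = 6.99e-05). CXCL14, a chemokine, rose from 8.63 and 7.41 CPM to 27.2, 22.9, 27.4 and 26.8 CPM, with no library of 1 group inside the range of the other (1.70, SE 0.148, adjusted p = 2.20e-04). SALL3, a zinc finger transcription factor, rose from 4.46 and 3.40 CPM to between 14.8 and 17.7 CPM, a log2 fold change of 2.02. The others were INSYN2B (1.39), MAP3K5, a kinase that activates stress signaling (1.25), KIRREL3, a synaptic adhesion molecule (1.37), AMOT, an angiomotin that binds YAP (1.02), IGFBP6, which binds insulin-like growth factors (1.41), FBN1, the microfibril protein fibrillin-1 (1.29), ID1 (1.52) and SYNJ2, a phosphoinositide phosphatase (1.13). Of these 12, AMOT lay at the threshold: its log2 fold change was 1.00 without shLuc exp1 and 0.99 without hairpin 1 exp2, short of a call in both cases.

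The 12 leading genes that fell included membrane, muscle and lipid genes and a Notch target. PLN, phospholamban, which restrains the calcium pump of the sarcoplasmic reticulum, fell from 22.6 and 20.9 CPM to 2.03 and 1.04 CPM with hairpin 1 and 1.70 and 2.47 CPM with hairpin 2 (log2 fold change -3.58, SE 0.222, adjusted p = 3.83e-05). FAP, the fibroblast activation protease on the cell surface, fell from 48.8 and 51.6 CPM to 8.98, 11.3, 7.38 and 10.4 CPM (-2.40, SE 0.151, adjusted p = 3.83e-05). TTYH1, a membrane protein of astrocytes and neural progenitors, fell from 66.4 and 67.0 CPM to 15.4, 11.02, 14.9 and 15.8 CPM (-2.22, SE 0.137, adjusted p = 3.83e-05). In all 3 genes the groups were far apart and every knockdown library was low. MYO1D, an unconventional myosin, had a log2 fold change of -2.15, ANGPTL2, a secreted angiopoietin-like protein, -2.16, and MTTP, which loads lipid onto lipoproteins, -2.09. NKAIN2 (-2.29), which interacts with the sodium pump, the potassium channel KCNJ16 (-2.58), PLEKHH2 (-2.11) and the translation factor EEF1A2 (-1.38) also fell. LUCAT1, a long noncoding RNA annotated as antisense, was at -1.82, and reads from the other strand cannot be told apart from its own. All 12 remained called in each of the 14 alternative analyses.

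**Figure D3:**
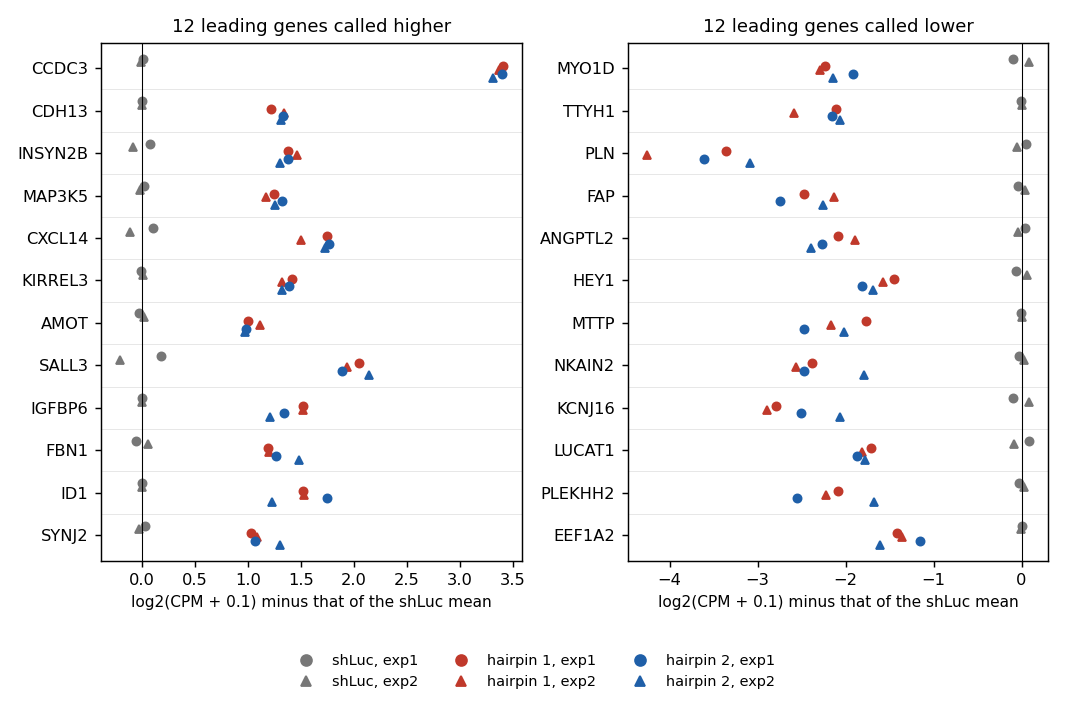
The 12 genes with the smallest p in each direction, as log2(CPM + 0.1) in each library minus that of the shLuc mean. Grey marks are shLuc, red hairpin 1 and blue hairpin 2, with circles for exp1 and triangles for exp2. In every gene the 4 knockdown marks lie on 1 side of both shLuc marks, as they do in every called gene.

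Genes of astrocytes were lower as a list. Like all lists here, it was written with earlier results of these data known, so its values are a description and not a test. Of 16 astrocyte genes tested, 4 fell (25.0%, against 2.43% of all tested genes) and 0 rose. A negative log2 fold change was seen in 15 (49.9% of all tested genes had one), and the median was -0.52, against 0.00 over all genes. By the edgeR adjusted p alone, 8 were lower and 1 was higher. The median stayed between -0.62 and -0.48 in the 14 alternatives. GJA1, connexin 43, the main gap junction protein of astrocytes, was at 1181 and 1228 CPM with shLuc, 471 and 414 CPM with hairpin 1, and 318 and 480 CPM with hairpin 2. It fell with no overlap (-1.52, SE 0.145, adjusted p = 3.09e-04). EDNRB, the endothelin receptor type B, fell from 154 and 164 CPM to 37.7, 28.4, 43.0 and 57.5 CPM (-1.93, SE 0.205, adjusted p = 5.42e-04). SPARCL1, a matricellular protein of astrocytes, fell from 9.58 and 7.51 CPM to 2.90, 1.66, 1.10 and 3.70 CPM (-1.87, SE 0.337, adjusted p = 0.00733), but was not called without shLuc exp1 (adjusted p = 0.0878). The fourth was TTYH1, described above.

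Of the other astrocyte genes, FABP7 and FGFR3 lay lower without reaching the fold of a call in the pooled comparison. FABP7, the brain fatty acid-binding protein of radial glia, was at 325 and 321 CPM with shLuc and at 184, 169, 217 and 189 CPM after knockdown (-0.77, adjusted p = 0.00211). FGFR3, a fibroblast growth factor receptor, was at 114 and 115 CPM with shLuc and at 56.7, 56.5, 78.7 and 56.3 CPM after knockdown (-0.88, adjusted p = 0.00435). SOX9, a transcription factor of glial specification, differed between hairpins: it was at 626 and 620 CPM with shLuc, 369 and 340 CPM with hairpin 1, and 583 and 554 CPM with hairpin 2 (difference -0.68, adjusted p = 9.71e-04). In the pooled comparison the log2 fold change of SOX9 was -0.43 (edgeR adjusted p = 0.166). It was -0.81 with hairpin 1 (adjusted p = 1.05e-04) and -0.13 with hairpin 2 (adjusted p = 0.291). FABP7, FGFR3 and SOX9 were chosen after their values were seen.

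Of the other glioma states, the mesenchymal and the proneural list gave calls in both directions. Called were 8.33% of the mesenchymal and 33.3% of the proneural genes tested, against 25.0% of the astrocyte genes and 3.97% of all tested genes. Of 24 mesenchymal genes tested, 1 rose and 1 fell, and the median was 0.19. The count of genes that rose was 0 without shLuc exp1, shLuc exp2, hairpin 2 exp1 or hairpin 2 exp2. The one that fell was CHI3L1, a chitinase-like secreted protein, with a log2 fold change of -1.05 (adjusted p = 0.0122), which was not called without shLuc exp1 (adjusted p = 0.101), shLuc exp2 (0.118) or hairpin 1 exp2 (log2 fold change -0.93). In the pooled comparison VIM was at a log2 fold change of 0.45 (edgeR adjusted p = 0.0579) and CD44 at 0.24 (adjusted p = 0.0897). By hairpin, VIM was at 0.24 with hairpin 1 (adjusted p = 0.0443) and 0.64 with hairpin 2 (5.09e-04), which differed (-0.40, adjusted p = 0.0118). CD44 was at 0.28 with hairpin 1 (adjusted p = 0.0213) and 0.19 with hairpin 2 (0.115). Of 9 proneural and oligodendrocyte progenitor genes tested, FGF12, an intracellular fibroblast growth factor homolog, rose (1.01), and 2 genes fell, among them MYT1, a zinc finger factor (-1.70). Without hairpin 1 exp1 or exp2, FGF12 was at 0.95 and 0.94, below the fold of a call, and MYT1, at most 1.85 CPM in any library, was not called without either shLuc library (adjusted p = 0.170 and 0.190), hairpin 1 exp1 (0.0501) or hairpin 2 exp1 (0.0573). PDGFRA, the platelet-derived growth factor receptor of this state, chosen after its values were seen, was at 518 and 531 CPM with shLuc, 670 and 700 CPM with hairpin 1, and 938 and 1106 CPM with hairpin 2 (0.70, adjusted p = 0.0372, not called). Hairpin 1 minus hairpin 2 was -0.58 for PDGFRA (log2, edgeR adjusted p = 0.00462). Of 17 neural stem cell genes tested, 0 were called, 10 lay higher and 7 lower, and NES was at 0.07 (log2, adjusted p = 0.603).

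The markers of other cell types gave these sums. The summed leukocyte markers were 19.1 to 24.3 CPM after knockdown and 20.6 to 21.4 CPM with shLuc, and LCP1 was the only one tested. Summed endothelial markers were 3.91 to 4.58 CPM after knockdown and 2.88 to 3.13 CPM with shLuc. Summed oligodendrocyte markers were 497 to 626 CPM after knockdown and 458 to 460 CPM with shLuc. The sum did not stand for the list: of the 4 tested, 2 lay higher and 2 lower, 0 rose and 1 fell, and the median was -0.29. The 1 that fell made up 25.0% of the tested markers, against 2.43% of all tested genes. Erythroid markers summed to 56.0 to 110 CPM after knockdown and 41.8 to 42.8 CPM with shLuc, with ANK1, an ankyrin that links the membrane to spectrin, the one that rose. Epithelial markers summed to 63.7 to 157 CPM after knockdown and 112 to 113 CPM with shLuc, a range set by CLDN4 and ELF3, which were above shLuc with hairpin 1 and below it with hairpin 2.

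Genes of the signaling pathways that act on glial state gave calls in both directions, among them ligands, receptors and feedback inhibitors. Over all tested genes 1.54% rose and 2.43% fell, and the counts of each list stand beside these shares. In the BMP pathway 3 of 17 tested genes rose (17.6%) and 1 fell (5.88%), with a median of 0.26 (0.13 to 0.32 in the alternatives). ID1, a target of BMP signaling that blocks bHLH transcription factors, was at 217 and 218 CPM with shLuc and at 622, 628, 729 and 510 CPM after knockdown, well above both controls (1.52, SE 0.138, adjusted p = 2.40e-04). Its relative ID2 rose from 75.3 and 76.0 CPM to 179, 180, 236 and 152 CPM (1.30, SE 0.164, adjusted p = 0.00134). SMAD6, an inhibitor of the pathway, rose from 19.9 and 18.0 CPM to 65.1, 62.2, 65.9 and 42.7 CPM (1.63, SE 0.188, adjusted p = 8.59e-04). The receptor BMPR1B moved the other way, from 171 and 193 CPM to 54.4, 47.3, 54.1 and 83.5 CPM (-1.60, SE 0.187, adjusted p = 8.82e-04). In each of these 4 genes hairpin 2 exp2 was the knockdown library nearest to shLuc.

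In the Notch pathway 1 of 16 tested genes rose and 1 fell (6.25% each), and the median was -0.17. HEY1, a transcriptional repressor induced by Notch, fell from 116 and 127 CPM to 44.3 and 40.7 CPM with hairpin 1 and 34.4 and 37.5 CPM with hairpin 2 (-1.63, SE 0.114, adjusted p = 6.99e-05). DNER, a transmembrane Notch ligand with EGF-like repeats, rose from 148 and 149 CPM to 382, 390, 331 and 263 CPM (1.20, SE 0.156, adjusted p = 0.00164). Its levels were higher with hairpin 1, and with hairpin 2 alone its log2 fold change was 0.99.

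In the Wnt pathway 3 of 22 tested genes rose (13.6%) and 0 fell, and the median was 0.28 (0.11 to 0.37 in the alternatives). Without shLuc exp1 1 gene of the list rose, and without hairpin 2 exp2 5 did. RSPO3, an R-spondin that amplifies Wnt signals, was at 0.474 and 0.515 CPM with shLuc, 4.15 and 5.20 CPM with hairpin 1, and 5.79 and 7.40 CPM with hairpin 2. It was near the limit of counting in the controls and rose in every knockdown library (3.48, SE 0.369, adjusted p = 5.43e-04). WNT5A, a ligand of the non-canonical branch, rose from 44.4 and 49.4 CPM to 87.8, 94.6, 103 and 94.9 CPM (1.02, SE 0.109, adjusted p = 5.63e-04), and was below the fold of a call without shLuc exp1 (0.95) or hairpin 2 exp1 (0.98). LGR6, a receptor for R-spondins, was at 1.90 and 2.16 CPM with shLuc, 20.2 and 16.8 CPM with hairpin 1, and 3.49 and 5.24 CPM with hairpin 2. It rose in the pooled comparison (2.49, SE 0.731, adjusted p = 0.0481) but differed between hairpins (2.09, adjusted p = 2.13e-04) and was not called without shLuc exp1 (adjusted p = 0.242), shLuc exp2 (0.236), hairpin 1 exp1 (0.0674) or hairpin 1 exp2 (0.0704).

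YAP targets had the highest median of the signaling lists, 0.63 over 17 tested genes (0.51 to 0.69 in the alternatives). Of these, 4 rose (23.5%, against 1.54% of all tested genes) and 0 fell. The count was 1 without shLuc exp1, shLuc exp2 or hairpin 1 exp2, and 2 without hairpin 1 exp1. The adjusted p alone was under 0.05 for 9 of them, all higher, where 7.00% of all tested genes were higher by that measure. ANKRD1, an ankyrin repeat protein, was at 160 and 163 CPM with shLuc and at 366, 400, 304 and 235 CPM after knockdown (1.02, adjusted p = 0.00809). The kinase NUAK2 was at 137 CPM in both shLuc libraries and at 322, 336, 291 and 204 CPM after knockdown (1.07, adjusted p = 0.00532). AMOTL1, another angiomotin, was at 92.3 and 89.6 CPM with shLuc and at 215, 226, 153 and 140 CPM after knockdown (1.01, adjusted p = 0.00946). The groups did not overlap for these genes, but all 3 lay at the threshold of the call. Without shLuc exp1 the adjusted p was 0.0871, 0.0651 and 0.0861 in that order, without shLuc exp2 it was 0.0872, 0.0675 and 0.106, without hairpin 1 exp2 the log2 fold changes were 0.90, 0.99 and 0.90, and without hairpin 1 exp1 those of ANKRD1 and AMOTL1 were 0.96 and 0.93. In the TGF-beta list 2 of 22 tested genes rose, among them the actin-binding protein TAGLN, which was at most 7.15 CPM in any library (1.02, adjusted p = 0.0337). The count of the list was 0 without shLuc exp2 or hairpin 2 exp1 and 1 without shLuc exp1, hairpin 1 exp1 or hairpin 1 exp2. TAGLN was not called without any 1 of 5 libraries, with a log2 fold change of 0.79 without shLuc exp1 (adjusted p = 0.289) and 1.29 without shLuc exp2 (0.123), 0.93 and 0.99 without hairpin 1 exp1 or exp2, and 1.00 without hairpin 2 exp1 (0.0763).

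Genes of the extracellular matrix changed in both directions, where 1.54% of all tested genes rose and 2.43% fell. Of 37 matrix glycoproteins and proteoglycans tested, 4 rose and 4 fell, and the median was 0.12, but 2 fell without shLuc exp1, shLuc exp2, hairpin 1 exp2 or hairpin 2 exp1. Among them FBN1, IGFBP6 and MATN2, a matrilin (1.46, adjusted p = 0.00330), rose, and ANGPTL2 and NOV, a CCN family matricellular protein, fell. NOV was at 21.4 and 21.7 CPM with shLuc and at 3.67, 4.99, 6.29 and 6.37 CPM after knockdown, far below both controls (-2.02, adjusted p = 3.09e-04). MATN2 was not called without shLuc exp1 (adjusted p = 0.0510). Of 33 matrix proteases and crosslinkers 5 rose and 2 fell. The count of those that rose was 0 without shLuc exp1, 1 without shLuc exp2 and 3 without hairpin 2 exp2, and 1 fell without shLuc exp2. FAP fell, as did ADAMTS12, a secreted metalloprotease (-1.63, adjusted p = 0.00422), and MMP24, a membrane-type metalloprotease, rose (1.17, adjusted p = 0.00381). ADAMTS12 was not called without shLuc exp2 (adjusted p = 0.0664) and MMP24 not without shLuc exp1 (0.0861).

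The collagens COL4A6, a basement membrane chain (1.30, adjusted p = 0.0188), and COL2A1, a cartilage chain counted at most at 1.23 CPM (-1.87, adjusted p = 0.0226), were the calls among 16 tested collagens, and neither was called without shLuc exp1 (adjusted p = 0.166 and 0.184) or shLuc exp2 (0.114 and 0.193), nor COL2A1 without hairpin 1 exp1 (0.0512). Without hairpin 2 exp2, 2 collagens rose and 2 fell. In the main comparison 6.25% of the tested collagens rose and 6.25% fell, and 10.0% of the tested integrins fell. Over all tested genes 1.54% rose and 2.43% fell. The integrin ITGB3, the beta chain of the vitronectin receptor, was at 131 and 125 CPM with shLuc, 36.1 and 29.9 CPM with hairpin 1, and 56.8 and 66.7 CPM with hairpin 2. It was the 1 gene that fell among 10 tested integrins (-1.43, adjusted p = 0.00677) and was not called without shLuc exp1 (adjusted p = 0.0638) or shLuc exp2 (0.0538), and 2 integrins fell without hairpin 2 exp2.

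Cadherins included 3 genes that rose (20.0%, against 1.54% of all tested genes) and 0 that fell among 15 tested, with a median of 0.34. Beside CDH13 these were FAT3, a giant atypical cadherin of neurons, at 31.6 and 31.4 CPM with shLuc and at 77.2, 88.7, 54.2 and 73.3 CPM after knockdown (1.22, adjusted p = 0.00304), and the protocadherin PCDH10 (1.01, adjusted p = 0.00656). FAT3 was above both controls in all 4 libraries. PCDH10 was not called without shLuc exp1 (adjusted p = 0.0638) or shLuc exp2 (0.102), and had log2 fold changes of 0.90 and 0.98 without hairpin 2 exp1 or exp2. NT5E, the surface enzyme CD73 that makes adenosine, rose from 8.35 and 5.45 CPM to 22.1, 26.0, 25.0 and 16.1 CPM (1.69, SE 0.240, adjusted p = 0.00264), and the adenosine receptor ADORA1 fell from 53.8 and 55.5 CPM to 24.0, 25.3, 24.4 and 26.7 CPM (-1.12, adjusted p = 2.20e-04).

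Channels and neurotransmitter receptors gave calls in both directions, where 1.54% of all tested genes rose and 2.43% fell. Of 9 potassium channels tested 3 fell and 0 rose, with a median of -0.42, and 1 fell without shLuc exp1 or shLuc exp2. These were KCNJ16, KCNK1, a tandem-pore channel (-1.19, adjusted p = 0.00857), and KCNJ11, the pore of the ATP-sensitive channel (-1.72, adjusted p = 0.0428). KCNJ16 fell from 9.96 and 11.3 CPM to 1.45, 1.35, 1.80 and 2.47 CPM, without overlap. KCNK1 was not called without shLuc exp1 (adjusted p = 0.0784) or shLuc exp2 (0.105), and KCNJ11, at most 1.99 CPM, was not called without shLuc exp1 (0.416), shLuc exp2 (0.103), hairpin 1 exp2 (0.0649) or hairpin 2 exp1 (0.0982). Of 30 calcium, sodium and chloride channels and their regulators 2 rose and 4 fell. Without shLuc exp1 or shLuc exp2 0 rose and 2 fell, and 1 rose without hairpin 1 exp1 or exp2. CACNA1C, the pore of the L-type calcium channel, was at 2.28 and 1.65 CPM with shLuc and at 4.64, 4.47, 6.79 and 6.99 CPM after knockdown (1.53, adjusted p = 0.00875), and TRPM8, the cold-sensing channel, was at 6.74 and 7.72 CPM and at 1.35, 1.87, 3.49 and 3.50 CPM (-1.50, adjusted p = 0.0135). Both were outside the range of the controls in all 4 libraries, but neither was called without shLuc exp1 (adjusted p = 0.0623 and 0.0816) or shLuc exp2 (0.122 and 0.134).

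Of 9 glutamate, GABA and glycine receptors tested 1 rose (11.1%) and 2 fell (22.2%), against 1.54% and 2.43% of all tested genes. GRIK2, a kainate receptor, was at 121 and 114 CPM with shLuc and at 50.4, 47.2, 45.9 and 62.3 CPM after knockdown (-1.19, adjusted p = 5.50e-04). It lay below both controls in every knockdown library. GRIK4, another kainate receptor, rose in the pooled comparison (1.01, adjusted p = 0.0416) but was not called without shLuc exp1 (adjusted p = 0.234), shLuc exp2 (0.220), hairpin 2 exp1 (0.0718) or hairpin 2 exp2 (0.0632).

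Of 17 peptide and amine receptors tested 3 rose and 3 fell (17.6% each), against 1.54% and 2.43% of all tested genes. DRD2, the dopamine D2 receptor, was at 121 and 118 CPM with shLuc and at 294, 310, 321 and 243 CPM after knockdown, above both controls throughout (1.29, adjusted p = 3.12e-04). NPY1R, a receptor for neuropeptide Y, rose from 165 and 160 CPM to 650 and 662 CPM with hairpin 1 and to 388 and 487 CPM with hairpin 2 (1.75, adjusted p = 0.00100). Among 23 genes of long-term depression, a form of synaptic weakening, 0 rose and 2 fell (8.70%, against 2.43% of all tested genes). The median of this list was -0.05, against 0.00 over all genes, with a changed sign in 3 of the 14 alternatives. Among the genes that fell was PLA2G4A, the cytosolic phospholipase A2 that frees arachidonic acid, which was at 5.41 and 6.07 CPM with shLuc and at 1.06, 0.624, 1.30 and 2.06 CPM after knockdown (-2.18, adjusted p = 0.00264).

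Several lists held few or no calls but lay mostly on 1 side. All 42 cytosolic ribosomal protein genes tested had a positive log2 fold change, with a median of 0.34 (0.29 to 0.39 in the alternatives). By adjusted p alone 18 of them were higher, where 7.00% of all tested genes were, but 0 reached the fold of a call. RPL13 was at 285 and 282 CPM with shLuc and at 429, 433, 412 and 354 CPM after knockdown (0.52, adjusted p = 0.0119), and RPS6 was at 662 and 667 CPM and at 884, 901, 860 and 841 CPM (0.39, adjusted p = 0.0148). Of 37 nuclear oxidative phosphorylation genes 32 were positive, with a median of 0.18. Taken by library, that median was 0.174 in both hairpin 1 libraries, 0.362 in hairpin 2 exp1 and -0.00916 in hairpin 2 exp2. All 13 mitochondrially encoded genes were positive, with a median of 0.14. The mitochondrial share of all counts was 2.50% to 2.52% with shLuc and 2.67% to 3.04% after knockdown, and its part in these lists was not tested. Of 17 genes of HLA class I antigen presentation 16 were positive, with a median of 0.31, and PSMB9, an immunoproteasome subunit, rose from 2.09 and 1.85 CPM to 7.34, 7.90, 5.69 and 5.96 CPM (1.76, adjusted p = 0.00183). Where 50.1% of all tested genes had a positive log2 fold change, 11 of 14 cholesterol synthesis genes did, with a median of 0.36. IDI1, an isomerase of the pathway, was at 41.0 and 41.9 CPM with shLuc and at 76.8, 77.1, 72.5 and 57.4 CPM after knockdown (0.78, adjusted p = 0.00656), short of the fold of a call.

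Cell cycle genes gave 0 calls among 20 of S phase and 27 of G2 and M phase, where 3.97% of all tested genes were called. Their medians were 0.14 and 0.10, and 8 of the G2 and M phase genes were higher by adjusted p alone, where 7.00% of all tested genes were. KIF20A, a kinesin of cytokinesis, was at 303 and 304 CPM with shLuc and at 472, 479, 451 and 414 CPM after knockdown (0.58, adjusted p = 0.00451). Of 11 p53 targets 9 were positive, the median was 0.43 (0.36 to 0.47 in the alternatives), and CDKN1A, the cell cycle inhibitor p21, was the 1 gene that rose (1.02, adjusted p = 0.0342). That call was lost in 8 of the 14 alternatives, among them without shLuc exp1 (adjusted p = 0.190), shLuc exp2 (0.220) or hairpin 2 exp1 (0.0517), without hairpin 1 exp1 or exp2 (log2 fold change 0.87 in both), and with hairpin 2 alone (0.50). Of 32 interferon-stimulated genes 2 rose (6.25%, against 1.54% of all tested genes) and 1 fell (3.125%, against 2.43%). The sign of their median, -0.00, changed in 7 of the 14 alternatives. In that list 1 gene rose without shLuc exp1 or shLuc exp2, and 2 fell without hairpin 1 exp1. The gene that fell, IFI44L, was at 9.20 and 9.37 CPM with shLuc and at 1.64, 2.08, 2.49 and 5.76 CPM after knockdown (-1.64, adjusted p = 0.0192) and was not called without shLuc exp1 (adjusted p = 0.118), shLuc exp2 (0.129) or hairpin 2 exp1 (0.0639). CTSS, a lysosomal cysteine protease, fell from 30.7 and 33.7 CPM to 10.0, 8.84, 12.4 and 16.5 CPM (-1.43, adjusted p = 0.00264).

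Aldehyde dehydrogenases and NRF2 targets lay lower, with 13 of 17 tested genes negative and a median of -0.38. AKR1C2, an aldo-keto reductase, was at 7.59 and 7.31 CPM with shLuc and at 1.26, 1.04, 1.90 and 1.54 CPM after knockdown (-2.37, adjusted p = 3.09e-04). Its near-identical copy AKR1C1 was at -1.23 (log2, adjusted p = 0.00250), and reads shared by the pair make both values uncertain. AKR1C1 was not called without shLuc exp1 (adjusted p = 0.0510). ALDH3B1, an aldehyde dehydrogenase, moved the other way, from 42.9 and 46.1 CPM to 141, 149, 125 and 99.5 CPM (1.53, adjusted p = 5.50e-04). Genes of the Polycomb complexes (11 of PRC1 and 3 of PRC2) and of the BAF remodeling complex (12) gave 0 calls, nor did any of 19 nuclear receptors, among which NR2F2, a COUP family receptor, was at 133 and 131 CPM with shLuc and at 198, 197, 204 and 193 CPM after knockdown (0.59, adjusted p = 0.00280). By adjusted p alone, 2 PRC1 genes were higher and 1 lower, 0 PRC2 genes and 1 BAF gene differed, and 3 nuclear receptors were higher and 3 lower. Over all tested genes 3.97% were called, and by adjusted p alone 7.00% were higher and 7.40% lower. In lists this short, 0 calls lies near that share.

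**Figure D4:**
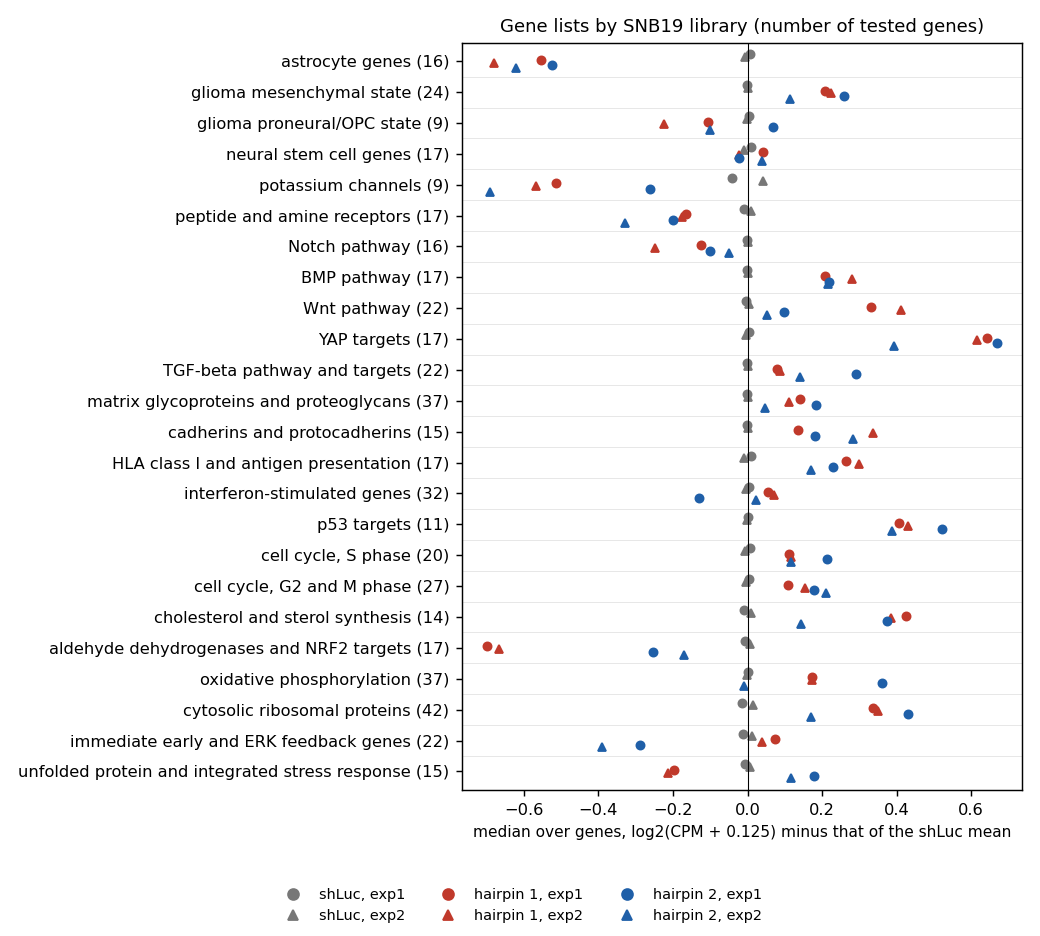
Median over the tested genes of each list of log2(CPM + 0.125) in a library minus that of the shLuc mean, with the number of tested genes in parentheses. Grey marks are shLuc, red hairpin 1 and blue hairpin 2, with circles for exp1 and triangles for exp2, and the astrocyte list lies left of 0 and the YAP targets and ribosomal proteins right of 0 in all 4 knockdown libraries.

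To ask how far the hairpins acted alike, each was compared with shLuc in 1 fit of 3 groups. These comparisons share the 2 shLuc libraries, so their calls are set side by side and the difference between hairpins is tested directly. With hairpin 1, 207 genes rose (2.36%) and 320 fell (3.65%), so that 6.02% were called. With hairpin 2, 124 rose (1.42%) and 227 fell (2.59%), so that 4.01% were called. Without hairpin 2 exp2, hairpin 1 gave 258 higher and 424 lower calls and hairpin 2 gave 210 and 506, so that hairpin 2 then had more calls in all. Both hairpins raised 77 genes and lowered 133, and 2 genes were called in opposite directions. The difference itself was called for 137 genes (1.56%), of which 75 were higher with hairpin 1 (0.856%) and 62 higher with hairpin 2 (0.708%), and 629 genes (7.18%) passed the adjusted p alone. These counts moved with single libraries, to 149 and 122 without hairpin 2 exp1, 131 and 86 without hairpin 2 exp2, 49 and 39 without hairpin 1 exp1, and 46 and 30 without hairpin 1 exp2. Of those 137, 23 (16.8%) were also among the 348 pooled calls, where they made up 6.61%.

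Several genes called in the pooled comparison were above shLuc with both hairpins but by unequal amounts. UNC5B, a netrin receptor, was at 48.0 and 43.7 CPM with shLuc, 351 and 303 CPM with hairpin 1, and 122 and 112 CPM with hairpin 2. The 3 groups did not overlap, and the hairpins differed by 1.48 (log2, SE 0.105, adjusted p = 6.03e-05). ANK1 was at 22.5 and 20.0 CPM with shLuc, 92.9 and 90.2 CPM with hairpin 1, and 45.5 and 39.3 CPM with hairpin 2 (difference 1.11, adjusted p = 3.02e-04). CDKN1A was at 232 and 229 CPM with shLuc, 605 and 604 CPM with hairpin 1, and 351 and 308 CPM with hairpin 2 (difference 0.88, SE 0.0895, adjusted p = 3.39e-04). For these genes hairpin 1 gave the higher level. NTRK3, the receptor of neurotrophin-3, had the opposite order, at 8.54 CPM in both shLuc libraries, 15.6 and 15.2 CPM with hairpin 1, and 44.0 and 34.4 CPM with hairpin 2 (difference -1.35, adjusted p = 3.75e-04). None of these 4 genes was called in the pooled comparison without shLuc exp1 (adjusted p = 0.0981, 0.103, 0.190 and 0.189 in the order given) or shLuc exp2 (0.120, 0.145, 0.220 and 0.208), and CDKN1A and NTRK3 lost their call without hairpin 2 exp1 as well (0.0517 and 0.0738). Without hairpin 2 exp2 the adjusted p of NTRK3 was 0.0566, and without hairpin 1 exp1 or exp2 the log2 fold change of CDKN1A was 0.87.

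Other genes lay on opposite sides of shLuc with the hairpins and were not called when the hairpins were pooled. The ones named here, apart from CLDN4, were chosen after their values were seen, and 21 genes in all had an adjusted p under 0.05 with each hairpin and opposite signs, 14 of them higher with hairpin 1. TFCP2L1, a transcription factor of epithelial and pluripotent cells, was at 6.64 and 7.10 CPM with shLuc, 28.2 and 27.2 CPM with hairpin 1, and 2.79 and 3.70 CPM with hairpin 2 (difference 3.09, SE 0.163, adjusted p = 1.21e-05). MMRN1, multimerin 1, was at 5.03 and 5.87 CPM with shLuc, 12.8 and 11.9 CPM with hairpin 1, and 1.40 and 2.67 CPM with hairpin 2 (difference 2.60, adjusted p = 2.04e-04). These were the 2 genes called in opposite directions. CLDN4, an epithelial tight junction protein, was at 42.5 and 44.2 CPM with shLuc, 77.8 and 73.3 CPM with hairpin 1, and 20.9 and 18.3 CPM with hairpin 2 (difference 1.95, adjusted p = 1.82e-05).

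The same order was seen in a ligand and a feedback inhibitor of receptor tyrosine kinase signaling. TGFA, a ligand of the EGF receptor, was at 184 and 181 CPM with shLuc, 301 and 295 CPM with hairpin 1, and 123 and 97.7 CPM with hairpin 2 (difference 1.43, adjusted p = 9.27e-05). SPRY1, a Sprouty inhibitor, was at 9.77 and 10.7 CPM with shLuc, 17.7 and 16.7 CPM with hairpin 1, and 5.19 and 5.04 CPM with hairpin 2 (difference 1.75, adjusted p = 1.47e-04). The water channel AQP1 was at 21.7 and 21.5 CPM with shLuc, 47.2 and 40.1 CPM with hairpin 1, and 12.1 and 12.7 CPM with hairpin 2 (difference 1.82, adjusted p = 6.03e-05). In these genes the shLuc libraries lay between the hairpins. THBS1, thrombospondin 1, and IL13RA2, a decoy receptor for interleukin 13, had the reverse order. THBS1 was at 1499 and 1517 CPM with shLuc, 832 and 843 CPM with hairpin 1, and 2156 and 2003 CPM with hairpin 2 (difference -1.31, adjusted p = 1.88e-05). IL13RA2 was at 128 and 131 CPM with shLuc, 75.9 and 79.5 CPM with hairpin 1, and 164 and 146 CPM with hairpin 2, with log2 fold changes of -0.74 and 0.26 that differed (adjusted p = 2.72e-04), although that of hairpin 2 did not pass the test on its own (adjusted p = 0.0853).

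Some lists also had medians that differed by hairpin. The 22 immediate early and ERK feedback genes had 0 pooled calls and medians of 0.06 with hairpin 1 and -0.35 with hairpin 2. The 17 aldehyde dehydrogenase and NRF2 genes had medians of -0.68 and -0.12, and the 15 genes of the unfolded protein response had medians of -0.21 and 0.10. The hairpin difference of these lists was not tested.

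**Figure D5:**
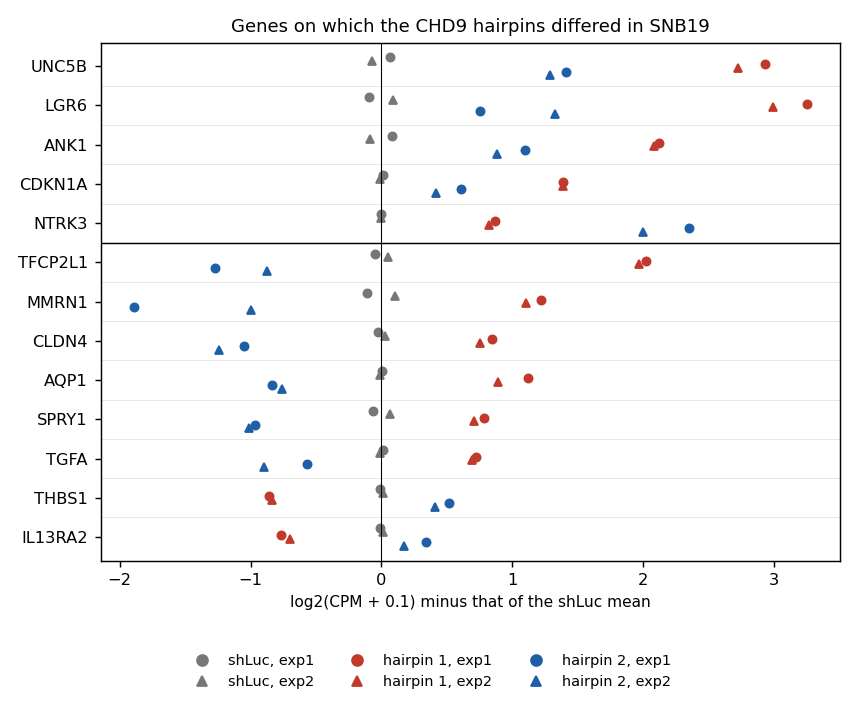
Genes on which the hairpins differed, as log2(CPM + 0.1) in each library minus that of the shLuc mean. Genes above the horizontal line were called in the pooled comparison and lie on 1 side of shLuc with both hairpins, and genes below it lie on opposite sides of shLuc. Grey marks are shLuc, red hairpin 1 and blue hairpin 2, with circles for exp1 and triangles for exp2.

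To ask where the response in SNB19 differed from that of the other human line, the 6 SNB19 libraries and the 6 K562 libraries with the same hairpins were fitted together and the difference between lines in the knockdown effect was tested. It was called for 811 of 10671 genes (7.60%), 211 (1.98%) with the larger value in SNB19 and 600 (5.62%) with the larger value in K562. Without hairpin 2 exp2 of SNB19 these counts were 221 and 658, and without shLuc exp2 of SNB19 the first was 136. The transcript of CHD9 itself was at 292 and 215 CPM with shLuc in K562 and at 129, 123, 135 and 135 CPM after knockdown, and its log2 fold change did not differ between lines beyond the spread (difference -0.32, adjusted p = 0.350, and -0.46, adjusted p = 0.0618, without hairpin 2 exp2 of SNB19). In the joint fit 12.5% of genes were called in K562, 9.18% higher and 3.30% lower. Of the 135 genes that rose in SNB19, 20 were also called higher in K562 and 4 lower, and of 208 that fell and could be tested in both lines, 13 were called lower in K562 and 27 higher.

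HEY1 moved in opposite directions in the lines. In K562 it was at 11.04 and 13.5 CPM with shLuc, 148 and 151 CPM with hairpin 1, and 66.3 and 65.5 CPM with hairpin 2, so that all 4 knockdown libraries were above the controls (log2 fold change 3.13, adjusted p = 6.61e-06), where all 4 were below them in SNB19. The difference between lines was -4.75 (adjusted p = 2.64e-06). PDK4, a kinase that restrains pyruvate dehydrogenase, was at 5.69 and 4.73 CPM with shLuc and at 1.45, 2.81, 1.20 and 2.16 CPM after knockdown in SNB19 (-1.46, adjusted p = 0.0113). In K562 it was at 0.307 and 0.422 CPM with shLuc and at 8.85, 9.40, 8.15 and 7.17 CPM after knockdown (difference -5.92, adjusted p = 6.58e-07). The K562 controls were near the limit of counting, so the size of that difference is uncertain. The SNB19 fall of PDK4 was not called without shLuc exp1 (adjusted p = 0.135) or shLuc exp2 (0.0687). CTSS was at 7.06 and 9.59 CPM with shLuc in K562, 16.3 and 20.7 CPM with hairpin 1, and 64.3 and 60.1 CPM with hairpin 2 (difference -3.70, adjusted p = 0.00114). SMAD6 was at 28.0 and 32.2 CPM with shLuc in K562 and at 13.3, 12.9, 23.3 and 24.8 CPM after knockdown, the reverse of its order in SNB19 (difference 2.34, adjusted p = 3.05e-04). For these 4 genes no K562 knockdown library lay within the range of the K562 controls, which adds nothing to the tests. The share of all genes with such a gap is not given here for K562, and in SNB19 it was 45.9%. In K562 the log2 fold change of SMAD6 was -0.69 (edgeR adjusted p = 0.0415), short of the fold of a call.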

How the data were processed

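The RNA of 6 SNB19 libraries was measured by RNA-seq. The authors aligned the reads to hg37 with TopHat and deposited HTSeq counts per gene, raw and not normalized, and the submitters' notes name TopHat2 2.1, HTSeq 0.5.3 and DESeq2. Symbols came from a GENCODE annotation of another build and were used as names only. Counts were analysed with edgeR 4.0.16 in R 4.3.3 (TMM factors, filterByExpr, quasi-likelihood F-test with Benjamini-Hochberg adjustment over all tested genes, prior count 0.125), and a standard error is the log2 fold change divided by the square root of F. Knockdown libraries were compared as 1 group, by hairpin in a fit of 3 groups, and with K562 in a joint fit. The text names CHD9, tested CHD genes, the 12 called genes with the smallest p in each direction, up to 5 called members of each of 55 lists (at most 2 where none was called), and genes said to be chosen after their values were seen. Members and lists were chosen with earlier results of these data known. Chi-square values used genes with at least 20 counts in the pair. Alternatives were DESeq2 1.42.0, its size factors, other count filters, single hairpins, a replicate block and leaving out each library. The statistics were also run on simulated counts with 1 spread for all genes, which is simpler than these libraries. In the simulated pooled comparison, which held no hairpin difference, 50.0% of genes changed 2-fold and 98.0% of those changed 3-fold were called. The mouse files were not used, and some genes that the naming rule selected are not reported here.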

Additional observations from a re-analysis of the deposited data

Results flagged for a closer look

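In 5 of 105 genes looked at, 1 of the 4 knockdown libraries lay far from the other 3: its gap to the nearest, divided by the range, exceeded the critical value of 0.829. Chance alone flags about 1 in 20 groups of 4 independent values from 1 normal distribution. These groups hold 2 hairpins with 2 libraries each, so that rate need not apply to them. The ratios were 0.867 for CXCL14, 0.841 for SMAD6, 0.954 for MYT1, 0.896 for CHD6 and 0.984 for FGFR3. The distant library was hairpin 2 exp2 for SMAD6, MYT1 and CHD6, where it was the one nearest to shLuc, hairpin 1 exp2 for CXCL14, and hairpin 2 exp1 for FGFR3.

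In 30 of the 105 genes the knockdown effect differed between SNB19 and K562 in the joint edgeR fit, and 7 more were left out because a K562 group held at most 3 counts in every library. The values are log2 fold changes in SNB19 minus those in K562. The difference was positive for MAP3K5 (0.62), IGFBP6 (1.64), FBN1 (2.23), ID1 (0.97), SYNJ2 (0.83), SMAD6 (2.34), PSMB9 (2.47), MMP24 (1.40), NUAK2 (1.94), C3 (1.82), AMOTL1 (0.96), FLRT1 (2.27), UNC5B (2.63), ANK1 (1.54) and TAGLN (1.81). It was negative for MYO1D (-1.42), TTYH1 (-3.08), HEY1 (-4.75), KCNJ16 (-2.59), LUCAT1 (-2.73), PLEKHH2 (-1.62), EEF1A2 (-1.58), AKR1C2 (-1.09), CTSS (-3.70), PLA2G4A (-3.32), BHLHE41 (-1.66), ITGB3 (-3.83), KCNK1 (-1.04), PDK4 (-5.92) and CD44 (-2.30). The SNB19 genes were named for their change in the same SNB19 libraries, and 1600 of all 10671 genes passed the same adjusted p.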

How the results depend on the processing

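Beside the 135 higher and 213 lower calls of edgeR, DESeq2 made 126 and 147, and edgeR with a replicate block made 116 and 187, all 303 among the 348. Among the genes named, the block ended the calls of TAGLN (adjusted p = 0.0542), CDKN1A (0.0526), GRIK4 (0.0620) and LGR6 (0.0686), and DLX2 was at a log2 fold change of 0.997, so that 0 of 22 TGF-beta genes and 0 of 11 p53 targets were called. The labels do not say whether exp1 and exp2 pair the libraries across groups. Deviations of exp1 from exp2 correlated at 0.0740, 0.0300 and 0.0914 between groups. Such weak positive values neither show nor exclude a pairing. Higher calls were 208 with no filter on low counts, 230 with hairpin 1 alone and 613 by adjusted p alone, and lower calls 373 with hairpin 1 alone and 648 by adjusted p alone. DESeq2 lowered the lower calls to 196 for hairpin 1, 124 for hairpin 2 and 41 for the hairpin difference. Leaving out 1 library gave 45 to 163 higher and 77 to 307 lower calls (CHD9 -1.43 to -1.21). For hairpin 1 it gave 163 to 258 and 231 to 434 (CHD9 -1.40 to -1.32), and for hairpin 2, 92 to 210 and 154 to 506 (CHD9 -1.59 to -0.94, under the fold of a call without hairpin 2 exp1). For the hairpin difference it gave 46 to 149 and 30 to 122 (CHD9 -0.43 to 0.23, with an adjusted p under 0.05 without either hairpin 2 library and positive without exp2), and for the difference from K562, 136 to 232 and 425 to 658 (CHD9 -0.56 to -0.12). A lone library left in a group is assumed to vary like the other groups. Reversed signs, all in genes with no call, were JARID2 -0.14 and NES -0.0024 with hairpin 2 alone, LCP1 -0.020 and ELF3 0.21 with hairpin 1 alone, and CLDN4 -0.17 as the mean of 3 groups, -1.15 with hairpin 2 alone, and -0.21 and -0.15 without hairpin 1 exp1 or exp2 (0.40 without hairpin 2 exp2). The cause was not tested. Of 89 called genes that the naming rule selected, 45 were called in all 14 alternatives and 43 lost their call without 1 library.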

Other observations

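Regulators of cell lineage changed in both directions, with 3 of 41 tested genes of the SOX, POU, homeobox and bHLH families higher (1.54% of all genes) and 2 lower (2.43%). The higher count was 0 without shLuc exp1 and 1 without shLuc exp2. One of the 3, DLX2, a homeobox factor of the same family as DLX6, was at 3.70 and 2.88 CPM with shLuc and at 8.11, 6.14, 7.68 and 4.52 CPM after knockdown (1.00, adjusted p = 0.0364), and lost its call in 9 of the 14 alternatives, among them without shLuc exp1 (adjusted p = 0.151), shLuc exp2 (0.286), hairpin 1 exp1 (0.0712), hairpin 1 exp2 (0.0505) or hairpin 2 exp1 (0.0852). BHLHE41, a repressor of the circadian clock, was at 95.2 and 92.2 CPM with shLuc, 28.0 and 30.4 CPM with hairpin 1, and 39.4 and 49.9 CPM with hairpin 2 (log2 fold change -1.34, edgeR adjusted p = 0.00265). DLX6, a homeobox factor of forebrain interneurons, was at 13.3 and 14.0 CPM with shLuc and at 29.3, 31.9, 30.9 and 21.9 CPM after knockdown (1.06, adjusted p = 0.00409), and was not called without shLuc exp1 (adjusted p = 0.0684) or shLuc exp2 (0.0553). All 3 genes lay on 1 side of the controls in all 4 libraries, as did 45.9% of all tested genes.

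SOX18, a factor of endothelial development, was at 19.1 and 18.3 CPM with shLuc, 27.5 and 29.7 CPM with hairpin 1, and 51.3 and 47.0 CPM with hairpin 2 (1.06, adjusted p = 0.0248), and lost its call without shLuc exp1 (adjusted p = 0.157), shLuc exp2 (0.191), hairpin 2 exp1 (0.0595) or hairpin 2 exp2 (log2 fold change 0.95). TLR3, the receptor for double-stranded RNA, was at 2.37 and 2.26 CPM with shLuc and at 6.47, 8.11, 3.79 and 6.89 CPM after knockdown (1.44, adjusted p = 0.0160), and was not called without shLuc exp1 (adjusted p = 0.128) or shLuc exp2 (0.148). The complement component C3 rose from 3.32 and 4.43 CPM to 9.18, 9.15, 14.6 and 13.9 CPM (1.60, adjusted p = 0.00535), and was not called without shLuc exp1 (adjusted p = 0.0815). Every knockdown library of these 3 genes lay above both controls, as in 23.6% of all tested genes.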
